A study of Mus with 438 samples.

Results

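The genes described here end the photoreceptor's response to light. They are cone arrestin (Arr3, gene ID 170735), rod arrestin or S-antigen (Sag, 20215), the photoreceptor kinase Grk1 (24013) and the regulator of G protein signalling Rgs9 (19739). They were chosen by name, and all 4 are among the 10390 genes of the expression table. In a light response, the visual pigment activates transducin, and transducin activates a phosphodiesterase that lowers cGMP. Shutoff runs in steps: Grk1 phosphorylates the active pigment, an arrestin binds the phosphorylated pigment and caps it, and Rgs9, with its membrane anchor Rgs9bp and the G protein beta subunit Gnb5, speeds the GTP hydrolysis that turns transducin off. Mouse cones are known to contain both arrestins, and mouse rods and cones are known to share Grk1 and Rgs9.

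The cells came from C57BL/6 mice. A Cre driver at the Thrb gene, which encodes a thyroid hormone receptor, together with the Ai6 fluorescent reporter marked the cones, and each fluorescent cell was picked by hand from a piece of superior or inferior retina. Receptor-knockout cones (Trb2Cre-KO:Ai6, 50 superior and 48 inferior cells) were collected at 2 months (2m). Control cones (Trb2Cre-het:Ai6) covered 5 collections. The superior zone gave 26 cells at postnatal day 2 (P2), 24 at P8, 24 at P21, 26 at P60 and 53 at 2m, and the inferior zone gave 30, 24, 24, 21 and 50 cells. The 29 rods (tgNrl:gfp) were of the 2m age. Controls carried the driver on 1 of their alleles, so they were heterozygous and not wild type, and the rods came from another mouse line with no zone given. Values are CPM, the reads of a gene per 1e+06 reads of the library. The labels name no animals, so cells were not used as replicates, each group of cells was treated as 1 sample, and SDs over cells describe spread between cells only.

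Cone markers were abundant in the cone groups, and low in rods. The summed level of the 9 cone markers had a median of 8502 CPM in the cone group with the lowest median (P2 superior), and of 2.21 CPM in rods. The median of the 9 measured rod markers, of 10 fixed, was 119172 CPM in rods, against medians of 910 to 8680 CPM in the cone groups. The median depth was 10.9 to 18.3 M reads (M for 1e+06) in the 2m collections, and 1.74 to 3.25 M reads in those of P2 to P60. Among cones, 2 libraries stood apart, with summed cone markers of 31.99 CPM (P2 superior 4) and 278 CPM (knockout superior 35), where the next lowest had 2942 CPM. The gene that the driver was placed in averaged 43.2 CPM in knockout and 213 CPM in 2m control superior cones, and 33.9 CPM in knockout and 170 CPM in 2m control inferior cones. Thrb exceeded 1 CPM in 19 of 50 superior and 18 of 48 inferior knockout cones, and in 46 of 53 superior and 33 of 50 inferior 2m control cones.

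Arr3, which caps activated cone opsins, was scarce in P2 cones and far higher in adult cones. At P2 it averaged 44.97 ± 81.2 CPM in superior cones and 74.5 ± 145 CPM in inferior cones (SD over cells). It had a median of 0.125 CPM superior and 0.131 CPM inferior, so most P2 cones had almost none and a few held up to 296 and 628 CPM. At P8 the means were 2812 ± 2032 CPM superior and 1584 ± 899 CPM inferior, and every cell was above 490 CPM. At P21 it averaged 8499.6 ± 2423 CPM superior (3998 to 12394, median 8496), the highest superior mean, and 5846 ± 2158 CPM inferior (1045 to 9331, median 5588). At P60 the means were 7406 ± 2560 and 5717 ± 2723 CPM, and in 2m controls 7466 ± 2751 and 5992 ± 2966 CPM. These adult collections lay close together in each zone.

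Sag, known as the arrestin of rods, was present in cones of every age. At P2 it averaged 382 ± 458 CPM superior (0.390 to 1548, median 197) and 402 ± 677 CPM inferior (0 to 2702, median 106). Superior cones had means of 4302 ± 2103 (P8), 8667 ± 1793 (P21), 8812 ± 3221 (P60) and 13669 ± 5247 CPM (2m control). Inferior cones had means of 5625 ± 2430, 12169 ± 2949, 12590.4 ± 4568 and 18926 ± 4487 CPM at those ages. From P8 on, each control cone had at least 1638 CPM, and the superior mean was below the inferior mean at each age. The P60 over 2m control log2 ratio of Sag was -0.63 superior and -0.59 inferior, although these collections are of like age and 1 genotype. Across cells, Sag went with depth in the 2m cones (Spearman correlation over cells of 0.70 in 50 superior knockout, 0.63 in 48 inferior knockout, 0.34 in 53 superior control and 0.29 in 50 inferior control cones, as a description), and the part of depth in the Sag levels was not tested.

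Grk1, the kinase that marks the active pigment for arrestin, had a far more uneven distribution. At P2 it was above 10 CPM in 6 of 26 superior and 7 of 30 inferior cones, with a median of 0 CPM in both zones and means of 44.1 and 62.0 CPM. In superior cones the later means were 152 ± 162 (P8), 609.8 ± 638 (P21), 382 ± 303 (P60) and 271 ± 298 CPM (2m control). In inferior cones they were 233 ± 288, 639.7 ± 508, 401 ± 397 and 513 ± 432 CPM. Cells with almost no Grk1 occurred in every collection: the lowest 2m control cone had 0.124 CPM superior and 0.0748 CPM inferior, and the highest 1828 and 1408 CPM.

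Rgs9, the GTPase-activating subunit for transducin, was already present at P2 and varied less with age than the other genes. Its superior means were 272 ± 363 (P2), 430.4 ± 290.4 (P8), 679 ± 465 (P21), 406 ± 293 (P60) and 411 ± 360.2 CPM (2m control). Its inferior means were 320.0 ± 352, 409 ± 347, 667 ± 605, 323 ± 365 and 311 ± 301 CPM. At P2, 22 of 26 superior and 24 of 30 inferior cones were above 10 CPM. The RNAs of its partners differed in timing. Rgs9bp averaged 25.1, 161, 404 and 322 CPM in superior cones of P2, P8, P21 and P60, and 64.6, 146, 247 and 361 CPM in inferior cones. Gnb5, by contrast, was at 223 and 244 CPM at P2 and at 400.2 and 467 CPM at P60.

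**Figure D1:**
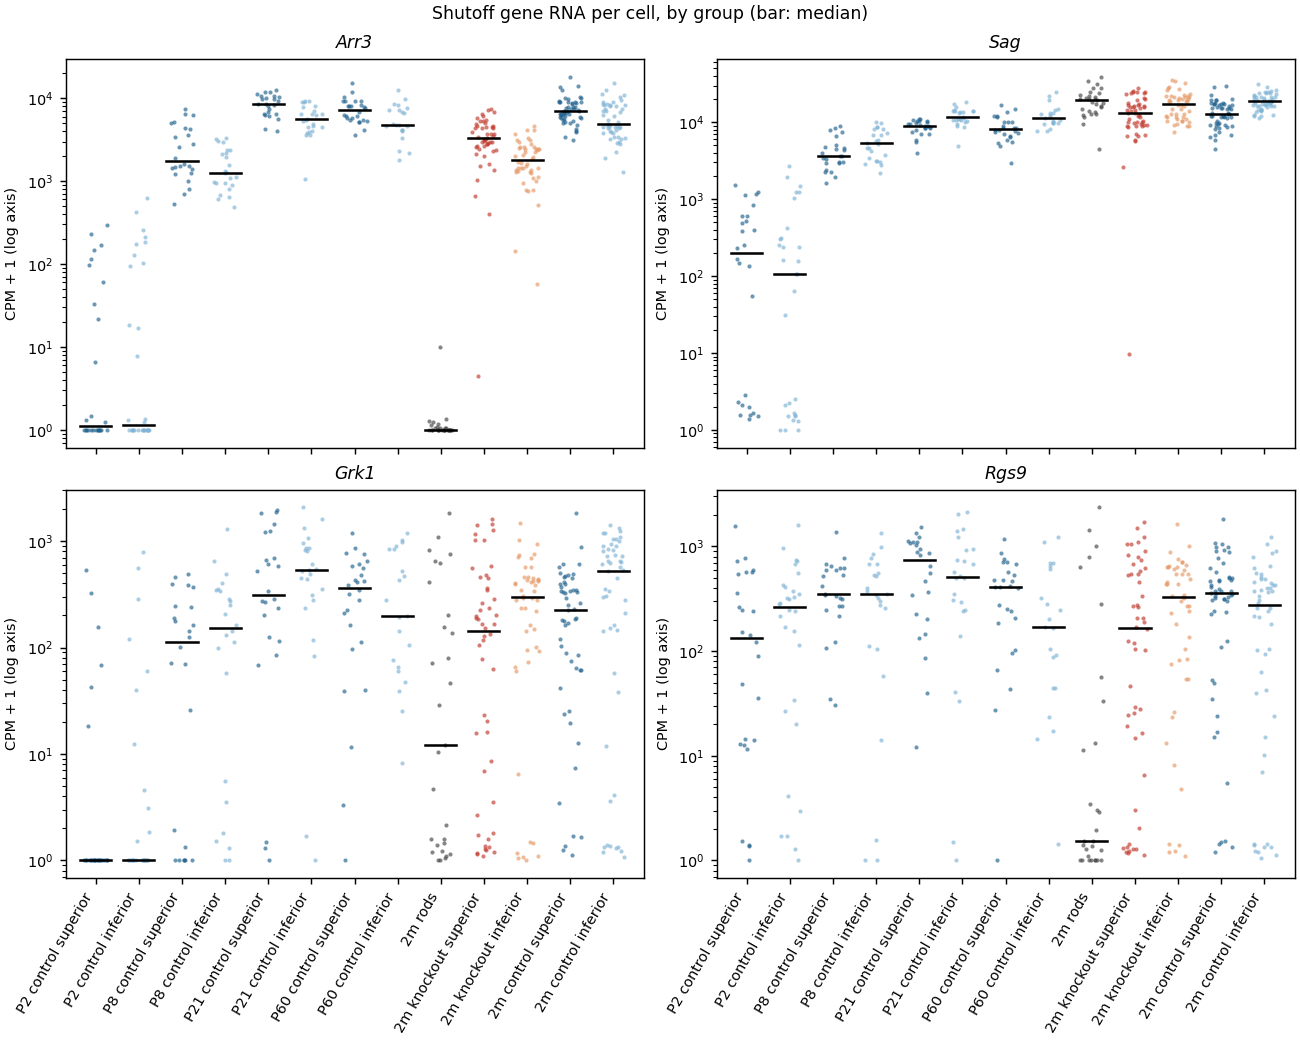
RNA of the 4 shutoff genes in each cell, in CPM + 1 on a log axis, by group, with a bar at the group's median. Arr3 and Sag form narrow bands from P21 on apart from a few knockout cones, rods hold almost no Arr3 (highest cell 9.06 CPM) and hold Sag (lowest cell 4461 CPM), and Grk1 and Rgs9 spread widely within groups (in rods, up to 1848 CPM of Grk1 and 2366 CPM of Rgs9).

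Ranked by mean level over the 13 groups, Arr3 was highest in P21 superior cones and lowest in rods (0.365 CPM). Each neighbour in that order overlapped the next in its quartile range, except P8 inferior against P2 inferior cones. The order for Sag was headed by rods (19574 CPM) and closed by P2 superior cones. Its neighbours without overlapping quartile ranges were P21 inferior against P60 superior cones, P21 superior against P8 inferior cones, and P8 superior against P2 inferior cones. For Grk1 and Rgs9 each neighbour overlapped the next. Grk1 was highest in P21 inferior and lowest in P2 superior cones, and Rgs9 was highest in P21 superior cones and lowest in rods (229 CPM).

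Comparing ages asks when cones acquire these RNAs. With 1 collection per age there is no test, and age and collection cannot be told apart. A gene met the size rule where its log2 ratio of mean CPM + 1 was at least 2-fold in the same direction in both zones, and if the group with the higher level had a mean of 10 CPM or more and over 25% of its cells, or exactly that share, above 1 CPM. Between P2 and P8, 3 of the 4 genes met it upwards, with P8 over P2 log2 ratios (superior, inferior) of 5.94 and 4.39 for Arr3, 3.49 and 3.80 for Sag, and 1.76 and 1.89 for Grk1. Rgs9 had 0.66 and 0.35. Over all 10390 genes, 3.14% met the rule upwards and 4.86% downwards, and the median log2 ratio was -0.15 superior and -0.20 inferior. In superior cones, the P2 and P8 ranges of Arr3 and of Sag did not overlap. In inferior cones, 22 of 24 (Arr3) and 23 of 24 (Sag) P8 cells lay above the highest P2 cell. Here and in later comparisons, ranges over cells were compared for the 4 shutoff genes and not for all genes. No share of all genes therefore stands beside them.

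From P8 to P21 the same 3 genes again met the rule upwards, against 1.58% of all genes upwards and 3.89% downwards. The P21 over P8 log2 ratios were 1.60 and 1.88 for Arr3, 1.01 and 1.11 for Sag, 2.00 and 1.45 for Grk1, and 0.66 and 0.70 for Rgs9, so that Sag lay just past the limit. Over the whole span, P60 over P2, these 3 genes met it (Arr3 7.33 and 6.24, Sag 4.53 and 4.96, Grk1 3.09 and 2.67), where 4.47% of all genes did upwards and 9.53% downwards. Rgs9 was not among them. None of the 4 met it between P21 and P60, where 0.962% of all genes did upwards and 1.02% downwards. The P60 over P21 log2 ratios of Arr3 (-0.20 and -0.03) and Sag (0.02 and 0.05) were near 0. Those of Grk1 (-0.68 and -0.67) and Rgs9 (-0.74 and -1.04) were negative in both zones, with Rgs9 short of the rule in superior cones, but by medians over cells Grk1 was at 0.22 superior and -1.44 inferior.

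Of 26 listed genes that work with or regulate these 4, 19 were in the table. Between P2 and P8, 8 of the 19 met the rule upwards and 0 downwards. They were recoverin, the calcium sensor that restrains Grk1 (Rcvrn, 1.89 superior and 2.16 inferior), the Rgs9 anchor Rgs9bp (2.64 and 1.16), the guanylate cyclase Gucy2e (1.30 and 2.01), its activators Guca1a (3.20 and 3.87) and Guca1b (6.82 and 5.70) and its inhibitor Rd3 (1.80 and 2.16). The remaining ones were the transducin-binding phosducin (Pdc, 1.89 and 1.79) and Unc119, a carrier of lipid-modified transducin (1.46 and 1.69). From P8 to P21 only Gucy2e among the 19 met it (1.91 and 1.08). Over the whole span, P60 over P2, 9 of the 19 met it upwards, namely these 8 and Nsf, an ATPase of membrane fusion (1.42 and 1.25), and the receptor kinase Grk6 met it downwards (-1.76 and -1.15). Of 18 genes of the activation steps, 14 met the rule upwards between P2 and P8, among them Opn1sw, Opn1mw, Gnat1, Gnat2, Gnb1, Gngt1, Pde6a, Pde6b, Pde6c, Pde6g, Pde6h, Cnga1 and Cngb1. From P8 to P21, Gnat2 and Opn1mw met it upwards, and Gnb1, Pde6b and Cngb1 were among those that met it downwards.

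Rod markers moved with Sag between P2 and P8. The summed rod markers ran from 3458 to 20697 CPM in P8 superior and from 1914 to 23012 CPM in P8 inferior cones, against 1.68 to 2829 and 77.4 to 2524 CPM at P2, and all 9 measured markers were above 0 in some P8 cell of each zone. At P2, Pde6a was at 0 in every superior and Gnat1 in every inferior cone. From P8 to P21 the 2 went apart. The median of the summed rod markers was 8680 CPM at P8 and 3509 CPM at P21 in superior cones, and 5946 and 4035 CPM in inferior cones. Mean Sag was 4302 and 8667 CPM in superior cones, and 5625 and 12169 CPM in inferior cones of these ages. The part of the rod markers in the Sag difference between P8 and P2 was not tested.

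The zone comparison asks whether cones of superior retina, richer in M opsin, differ from those of inferior retina, richer in S opsin. It had 5 control collections as replicates. Sag was lower in superior than in inferior cones in 5 of 5 collections, with a mean log2 difference of -0.39 (SE 0.08), or -0.08, -0.39, -0.49, -0.51 and -0.47 at P2, P8, P21, P60 and 2m. Grk1 was lower in superior cones in 5 of 5 collections as well, at -0.43 (SE 0.17), with -0.48, -0.62, -0.07, -0.07 and -0.92. Arr3 was higher in superior cones in 4 of 5 collections, at 0.27 (SE 0.19), with -0.72, 0.83, 0.54, 0.37 and 0.32. Rgs9 was also higher in 4 of 5, at 0.12 (SE 0.13). These directions are those of mean CPM. By medians over cells, Sag at P2 was higher in superior (197 CPM) than in inferior cones (106 CPM), as were its means of log2 values (5.99 and 5.29). The median of Grk1 was higher in superior cones at P60 (364 and 195 CPM) and 0 in both zones at P2. In the remaining collections, the medians of Sag and Grk1 were lower in superior cones.

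None of these differences passed the test across all genes. With limma, a moderated linear model, collection as a block and Benjamini-Hochberg adjustment over 10136 genes, adjusted p was 0.538 for Sag, 0.702 for Grk1, 0.801 for Arr3 and 0.874 for Rgs9. The test called 0 of 10136 genes (0.0%), and 710 genes (7.0%) had an unadjusted p under 0.05. Sag (p = 0.00117 in limma, unadjusted) and Grk1 (p = 0.0286, unadjusted) were among these. The test did not call the opsins either, with -2.15 for Opn1sw (adjusted p = 0.476 in limma) and 0.74 for Opn1mw (0.833 in limma). A gene that was not called here may therefore still differ by zone. On the log2 group means, an exact two-sided sign-flip test over the 5 collections gave p = 0.0625 for Sag and for Grk1. This is the smallest p that 5 pairs allow, and it rests on the directions of the means. The same sign-flip test gave p = 0.375 for Arr3 and 0.3125 for Rgs9. By DESeq2 on recovered reads, adjusted p for Grk1 was 0.0217, and the range over all settings was 0.0217 to 1.0. That tool called 236 genes, while edgeR called 0 of 10136, with 420 at an unadjusted p under 0.05.

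Leaving out the P2 collection, in which few cones had Arr3, gave a zone difference of 0.51 for Arr3 (adjusted p = 0.457 in limma, range over all settings 0.457 to 1.0), and leaving out P8 gave 0.13. Among the 18 partner genes tested, 0 were called and 3 had an unadjusted p under 0.05 in limma, namely Guca1b (-1.25), Guca1a (-0.44) and Pdc (0.40). Their median difference was 0.03, against 0.10 over all genes. Rgs9bp (-0.16), Gnb5 (-0.17) and Rcvrn (0.08) had small differences. Of the 18 activation genes, 0 were called and 5 had an unadjusted p under 0.05, with a median of -0.18.

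**Figure D2:**
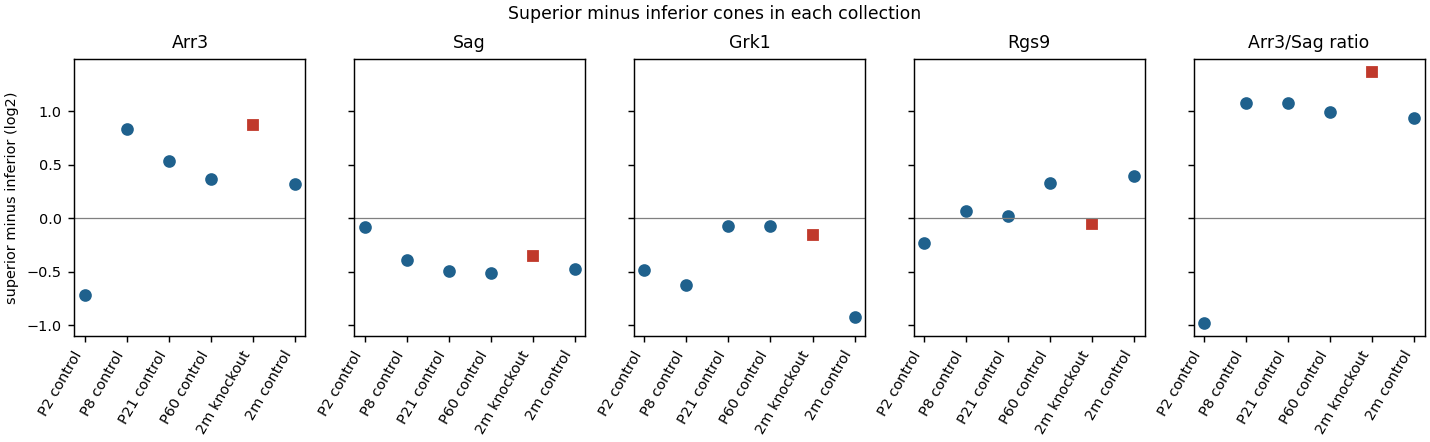
Superior minus inferior difference in each collection, in log2 units of mean CPM + 1 for the 4 genes and of the mean log2 ratio per cell for Arr3 over Sag. Sag lies below 0 in all 6 collections, and the ratio lies between 0.94 and 1.37 in each collection except P2 (-0.98).

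The ratio of cone to rod arrestin was computed in each cell as log2((Arr3 + 1)/(Sag + 1)). Transcript lengths were not known, so the ratio compares groups and says nothing of which arrestin had more molecules. In superior cones its mean was -3.55 ± 4.33 at P2, -0.84 ± 1.24 at P8, -0.06 ± 0.52 at P21, then -0.23 ± 0.70 at P60 and -0.85 ± 0.74 at 2m (SD over cells, controls). In inferior cones it was -2.57 ± 4.40, -1.92 ± 0.78, -1.13 ± 0.61, -1.23 ± 0.61 and -1.80 ± 0.84 at the same ages. From P8 on, the superior mean exceeded the inferior mean by 1.08, 1.08, 0.99 and 0.94, or 1.92-fold to 2.11-fold, and at P2 the difference was -0.98. Arr3 CPM exceeded Sag CPM in 8 of 24 P8, 11 of 24 P21, 9 of 26 P60 and 7 of 53 2m superior control cones, but in 0 of 24, 0 of 24, 0 of 21 and 0 of 50 inferior cones of those ages. Over the 5 collections the mean difference was 0.62 ± 0.90 (SD, n = 5; exact sign-flip p = 0.1875), and without P2 it was 1.02 (exact sign-flip p = 0.125, the smallest that 4 pairs allow). The groups overlapped at every age: at P60, 17 of 26 superior cones lay above the highest inferior cone, and 2 of 26 lay below the inferior median.

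**Figure D3:**
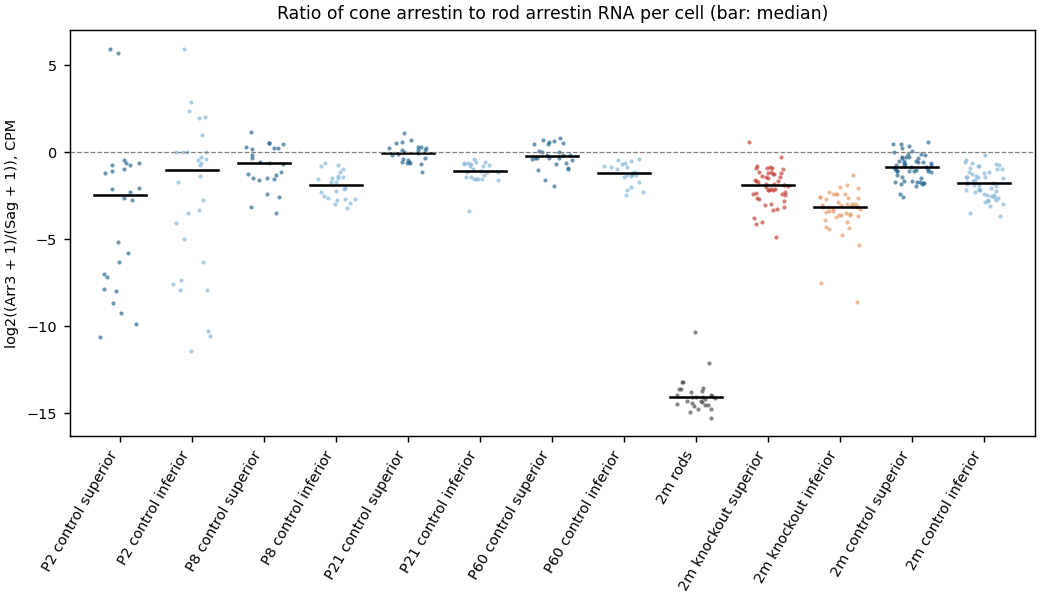
Log2 ratio of Arr3 to Sag CPM (each + 1) in each cell by group, with a bar at the median and a dashed line at equal CPM. Superior cones sit higher than inferior cones from P8 on, knockout cones sit lower than controls of the same zone, and rods sit near -14.

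Within superior cones the ratio went with the M opsin share of the cell's opsin RNA at P60 (Spearman correlation 0.58 over 26 cells) and less in 2m controls (0.35 over 53 cells), but not at P21 (0.04 over 24 cells) or at P8 (-0.20 over 24 cells). In inferior cones the correlation was 0.12, -0.34, -0.01 and 0.30 for P8, P21, P60 and 2m controls. In the knockout it was 0.06 superior and -0.14 inferior, and the median over the 11 groups in which it could be computed was 0.06. Opn1mw exceeded 1 CPM in only 10 of 50 superior and 2 of 48 inferior knockout cones, and in 1 of 30 P2 inferior cones. The M opsin share hardly varied in these groups, so their correlations cannot show a relation. These values are descriptions over cells, whose animals the labels do not name. Arr3 and Sag themselves had a Spearman correlation of -0.08 to 0.55 in the 13 groups, with a median of 0.17. The medians for the other pairs of the 4 genes lay between -0.08 and 0.07. The plot of Arr3 against Sag per cell shows this loose relation.

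**Figure D4:**
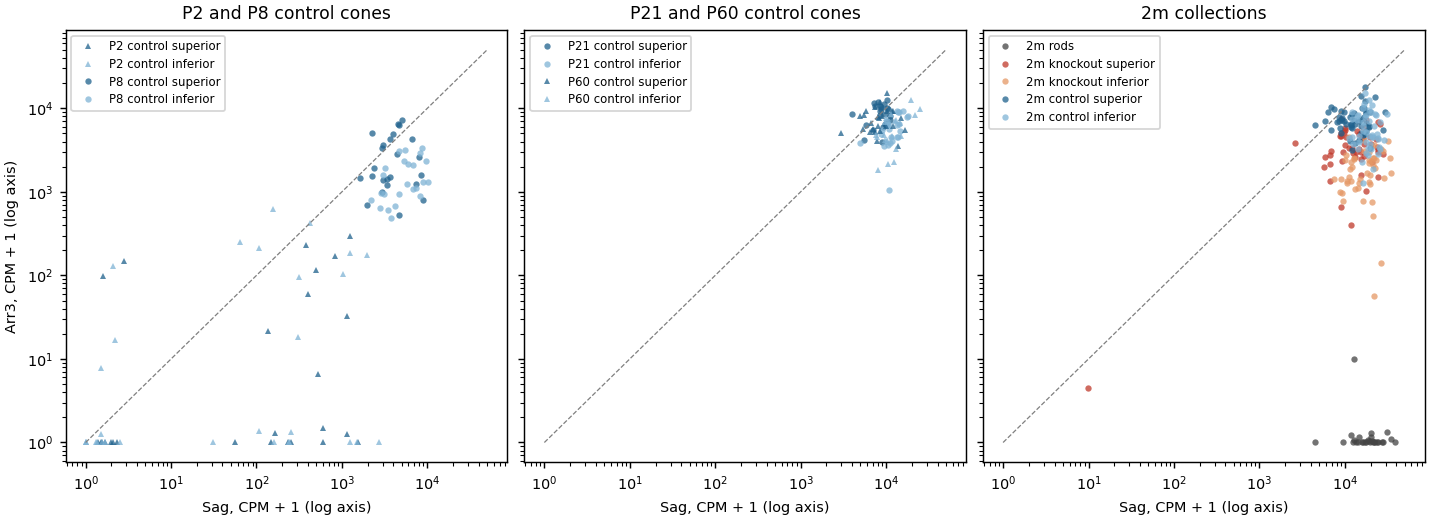
Arr3 against Sag in each cell, both in CPM + 1 on log axes, with the dashed line at equal CPM. P2 cones scatter over the whole plane, cones of P21 and P60 form a compact cloud near the line, and 2m rods lie at the bottom with Sag alone.

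The knockout comparison asks which of these RNAs differ in cones without the receptor. There was 1 knockout collection and hence no test, so sizes are given against both adult control collections. Arr3 was the 1 gene of the 4 that met the size rule. It averaged 3559 ± 1706 CPM in knockout (3.47 to 7375, median 3305) and 7466 ± 2751 CPM in 2m control (3135 to 18107, median 7009) superior cones. In inferior cones it averaged 1946 ± 1013 CPM in the knockout (56.0 to 4552, median 1770.0) and 5992 ± 2966 CPM in the 2m control (1291 to 15187, median 4859). The knockout lay below the 2m control median in 48 of 50 superior and 48 of 48 inferior cones, and 23 and 13 of these lay below the lowest 2m control cone. The groups overlapped in both zones.

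The knockout over 2m control log2 ratio of Arr3 was -1.07 superior and -1.62 inferior (0.477-fold and 0.325-fold), and against P60 it was -1.06 and -1.55. The P60 over 2m control log2 ratio was -0.01 and -0.07. Over all genes, 1.0% met the rule downwards and 1.05% upwards against 2m controls, and 1.90% and 1.87% against P60. Between the P60 and 2m controls, of 1 genotype, 2.56% met it downwards and 2.53% upwards. Without the knockout library with little cone RNA (3.47 CPM of Arr3 and 8.82 CPM of Sag), the superior ratio of Arr3 was -1.04. The superior minus inferior difference of Arr3 was 0.87 in the knockout and 0.32 in 2m controls, and whether these differ was not tested.

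The other members did not meet the rule. Sag averaged 13901 ± 6513 CPM in knockout and 13669 ± 5247 CPM in 2m control superior cones, and 17672 ± 6955 CPM in knockout and 18926 ± 4487 CPM in 2m control inferior cones. Its log2 ratios were 0.02 and -0.10 against 2m controls and 0.66 and 0.49 against P60 controls, about the gap between the control collections. Grk1 averaged 304 ± 436 CPM in knockout and 271 ± 298 CPM in 2m control superior cones, and 339.8 ± 305 CPM in knockout and 513 ± 432 CPM in 2m control inferior cones, with log2 ratios of 0.16 and -0.59. The superior ratio of Grk1 turned with the measure, at -0.67 by medians over cells, -1.01 by means of log2 values and -0.33 against P60 controls. Rgs9 had 352 ± 439 CPM in knockout and 411 ± 360.2 CPM in 2m control superior cones, and 364 ± 334 CPM in knockout and 311 ± 301 CPM in 2m control inferior cones, with log2 ratios of -0.22 and 0.23. By medians over cells these were -1.09 and 0.25, and by means of log2 values -1.31 and 0.58, so the superior ratio passed 2-fold there and the inferior one had the opposite sign. The knockout and control ranges of each of these 3 genes overlapped in both zones.

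Arr3 lies on the X chromosome, the labels name no sex, and the 2m collections held cells with and without RNA of Xist, the long RNA of the inactive X chromosome. Xist exceeded 1 CPM in 36 of 50 superior and 27 of 48 inferior knockout cones, and in 15 of 53 superior and 18 of 50 inferior 2m control cones. Depth moved with it, with a median of 9.35 M reads in knockout superior cones with Xist and 16.6 M reads in those without. In cones with Xist, the knockout over control log2 ratio of Arr3 was -0.96 superior, short of 2-fold, and -1.70 inferior. In cones without Xist it was -1.29 and -1.49. The cones with Xist were not alike in its level. Xist averaged 246 CPM superior and 251.5 CPM inferior in those of the knockout, against 30.4 and 53.05 CPM in those of the 2m control. The ratios are therefore not matched for Xist level. Sag in superior knockout cones averaged 12240.0 CPM with Xist and 18173 CPM without, and in superior 2m control cones 10728 and 14830 CPM. Grk1 in inferior 2m control cones averaged 743 CPM with Xist and 383 CPM without, so that its knockout over control log2 ratio there was -1.12 in cones with Xist and -0.18 in cones without. The inferior ratio of Rgs9 was -0.26 in cones with Xist and 0.53 in cones without.

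The arrestin ratio of knockout cones was -1.98 ± 1.03 superior and -3.36 ± 1.25 inferior. The knockout minus 2m control difference was -1.13 and -1.56, and the knockout minus P60 control difference -1.75 and -2.13. P60 controls exceeded 2m controls by 0.62 and 0.57. The ratio lay below the 2m control median in 47 of 50 superior and 47 of 48 inferior knockout cones. Within the knockout the superior mean exceeded the inferior mean by 1.37. In the same cones M opsin (Opn1mw) averaged 6.63 CPM superior and 1.47 CPM inferior.

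Among the 19 partner genes, 2 met the rule upwards in the knockout against 2m controls and 0 downwards. Guca1b, a calcium-sensing activator of guanylate cyclase, averaged 461 CPM in knockout and 103 CPM in 2m control superior cones, and 1326 CPM in knockout and 148 CPM in 2m control inferior cones. Slc24a1, the sodium-calcium exchanger known from rods, averaged 49.2 CPM in knockout and 11.3 CPM in 2m control superior cones, and 86.5 CPM in knockout and 21.9 CPM in 2m control inferior cones. Neither met the rule against P60 controls, where the log2 ratio was 1.17 and 0.90 for Guca1b and 4.12 and -0.60 for Slc24a1, and both also differed between the control collections (P60 over 2m log2 ratios of 0.98 and 2.26 for Guca1b). Rgs9bp (0.16 and 0.06), Gnb5 (-0.54 and 0.36) and Rcvrn (-0.21 and -0.64) did not meet it. Of the 18 activation genes, Opn1mw, Gnat1 and Pde6b met it downwards against 2m controls, and Opn1mw and Pde6a did so against P60 controls. The summed rod markers ran from 11.3 to 8809 CPM in knockout and from 1161 to 6129 CPM in 2m control superior cones, and from 2181 to 9081 CPM in knockout and from 861 to 11890.0 CPM in 2m control inferior cones. No measured rod marker was at 0 in every cell of these groups, and their part in these differences was not tested.

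**Figure D5:**
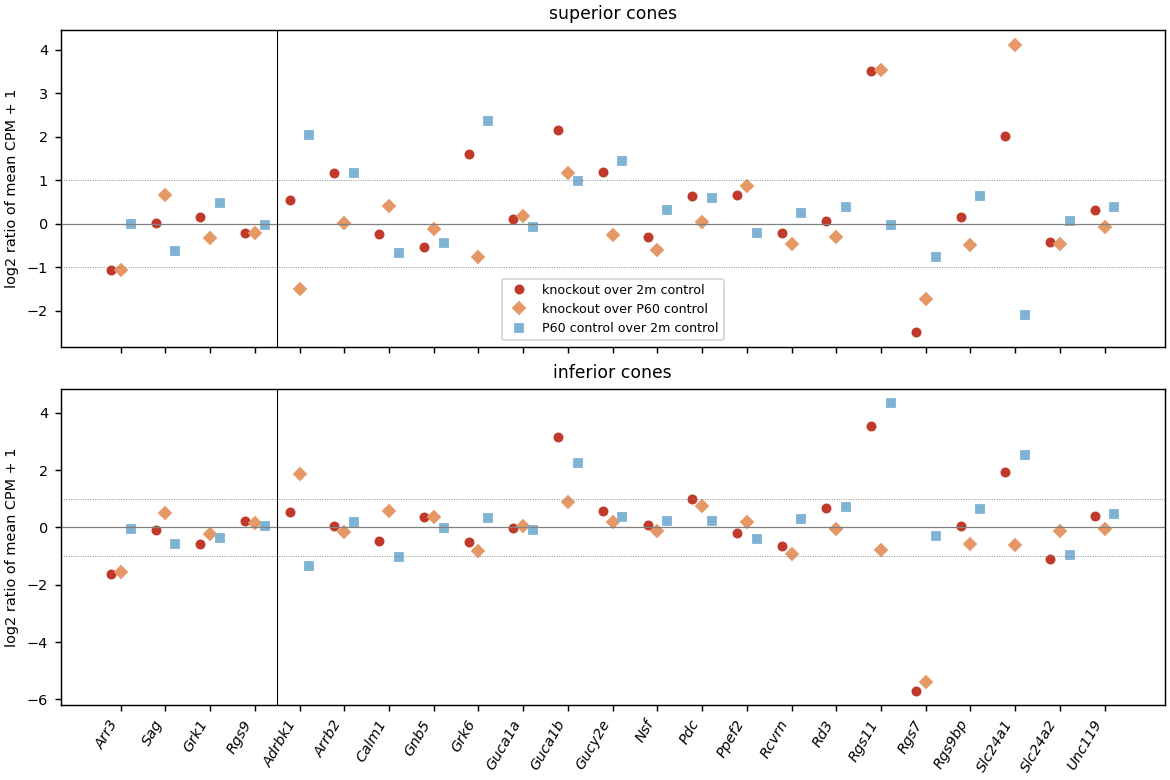
Log2 ratios of mean CPM + 1 for the 4 genes (left of the line) and the 19 measured partner genes, in superior (upper) and inferior (lower) cones, with dotted lines at 2-fold. Arr3 lies below -1 against both control collections with P60 over 2m near 0. Low genes such as Rgs11 (-0.02 and 4.34) and Slc24a1 (-2.09 and 2.54) differ widely in P60 over 2m (superior and inferior). Rgs7 lies at -2.49 and -5.69 against 2m controls and at -1.73 and -5.39 against P60 controls. Its P60 over 2m ratios are -0.76 and -0.29, and it did not meet the size rule.

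Rods held the rod arrestin at a cone-like or higher level and almost no cone arrestin. Arr3 was below 10 CPM in each of the 29 rods (0 to 9.06, median 0), against at least 3135 CPM in each 2m control superior and 1291 CPM in each 2m control inferior cone. The ranges did not overlap, and the log2 ratios of rods over 2m control cones were -12.42 and -12.10 with a pseudocount of 1. At equal depth, 3 of 29 rods (10.3%, exact 95% interval 2.19 to 27.4) had at least 1 read of Arr3, and all cones of P8 and later did. With 3 counts taken as the limit of a count of 0, the 0 of 29 rods over 10 CPM allow a share of up to 10.3%, the exact 95% interval ends at 11.9%, and intervals and limits cover counting error only. Sag averaged 19574 ± 7555 CPM in rods (4461 to 39061, median 19443), against 13669 CPM (superior) and 18926 CPM (inferior) in 2m control cones. The log2 ratios of Sag were 0.52 and 0.05 over 2m control cones, and 1.15 and 0.64 over P60 control cones.

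Grk1 and Rgs9 were uneven among rods, with more than 10 CPM in 15 and 10 of the 29. Grk1 averaged 239 ± 433 CPM in rods with a median of 11.3 CPM, against medians of 227 and 527 CPM in superior and inferior 2m control cones. Rgs9 averaged 229 ± 544 CPM in rods with a median of 0.548 CPM, against medians of 354 and 273 CPM. By means the log2 ratios over 2m control cones were -0.18 and -1.10 for Grk1 and -0.84 and -0.44 for Rgs9, and by medians -4.21 and -5.43 for Grk1 and -7.84 and -7.47 for Rgs9. The highest rods held 1848 CPM of Grk1 and 2366 CPM of Rgs9. Whether rods with values near 0 lacked these RNAs, or whether their libraries missed them, was not tested. At equal depth, Rgs9 was detected in 16 of 29 rods (55.2%, exact 95% interval 35.7 to 73.6), and in 49 of 53 superior and 42 of 50 inferior 2m control cones.

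Of the 4 genes, Arr3 met the size rule downwards in rods against both cone groups, where 13.8% of all genes did and 2.01% did upwards. The median log2 ratio over all genes was itself -1.01 and -0.81 there. Against P60 control cones Arr3 met it too (-12.41 and -12.03), where 17.4% of all genes did and 3.21% did upwards. Among the partner genes, Guca1b (5.80 and 5.28), Slc24a1 (7.35 and 6.45), Pdc (1.37 and 1.53) and Unc119 (1.25 and 1.11) met it upwards. The cone exchanger Slc24a2 met it downwards and was at 0 CPM in all 29 rods, against 139.4 and 138.6 CPM in superior and inferior 2m control cones. Rgs9bp (0.08 and -0.10), Gnb5 (0.54 and 0.73) and Rcvrn (1.08 and 0.96) did not meet it. Against P60 control cones, Guca1b and Slc24a1 met it upwards, and Slc24a2, Gucy2e (-1.48 and -1.28) and Rd3 (-1.46 and -1.64) downwards. Of the 18 activation genes, 9 met it upwards and 9 downwards against each collection, the lower ones being the cone forms (Opn1sw, Opn1mw, Gnat2, Gnb3, Gngt2, Pde6c, Pde6h, Cnga3 and Cngb3).

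Joint detection followed the rarer RNAs. All 4 genes exceeded 10 CPM in 3 of 26 superior and 2 of 30 inferior cones at P2, in 16 of 24 and 16 of 24 at P8, in 21 of 24 and 20 of 24 at P21, and in 24 of 26 and 19 of 21 at P60. The counts were 29 of 50 superior and 37 of 48 inferior cones in the knockout, against 41 of 53 and 34 of 50 in 2m controls. The RNAs of the Rgs9 complex (Rgs9, Rgs9bp and Gnb5) exceeded 10 CPM together in 2 of 29 rods, against 28 of 53 superior and 25 of 50 inferior 2m control cones. Whether the remaining cells lacked an RNA, or whether their libraries missed it, was not tested. Cells below 10 CPM of both Grk1 and Rgs9 numbered 6 of 50 superior and 4 of 48 inferior in the knockout, against 1 of 53 and 5 of 50 in 2m controls.

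Over the 13 group means, the genes most like each of the 4 were found by Pearson correlation among 9052 genes, as a description. Those most like Arr3 were A930030B21Rik (r = 0.982), Cplx3 (0.977), Ppm1j (0.977), Clca1 (0.976) and Hrasls (0.961). For Sag they were Cpe (0.978), Nxnl1 (0.970), Cds1 (0.964), Vtn (0.960) and Abca4 (0.957). Among those most like Grk1 were Pde6d (0.946), Hpcal1 (0.934), Fabp12 (0.928) and the Rgs9 anchor Rgs9bp (0.927). For Rgs9 the values were lower, with Arsb (0.915), Myrip (0.895), Cyp2u1 (0.866), Rsrp1 (0.852) and D430042O09Rik (0.852). Sag and Grk1 had an r of 0.882, and Arr3 and Sag one of 0.390.

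The deposited region lists show where the receptor was bound in E18 retina (ThrbHAB:BirA, with BirA alone as control) and where chromatin of purified P30 cones (Trb2Cre-KO:Sun1-gfp and Trb2Cre-het:Sun1-gfp) was listed as induced or suppressed, without values per sample. Arr3 spans chrX:100605480-100618493 in RefSeq genes of GRCm38.p6 and, like the other 3 genes, overlaps no other gene there, which matters since counting by strand is not stated. Of 5049 induced ATAC regions, 4 lie within 10 kb of it and outside the gene interval. One (chrX:100603792-100604005) lies 1475 bases below the lower end of the gene. The others (chrX:100618621-100618872, chrX:100619233-100619566 and chrX:100619713-100620244) lie 128, 740 and 1220 bases above the upper end. Of 10143 placed genes, 108 (1.07%) have at least as many within 10 kb. Arr3 has the same 4 within 50 kb, the distance used for the other genes, and the share of genes with at least as many there was not counted. The receptor-bound region nearest to Arr3 (chrX:100625791-100626090, 7298 bases away) has a listed p-value of 0.0392 and ranks 4391 of 4590 in the authors' list.

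Sag (chr1:87798143-87845158) has 1 receptor-bound region within the gene (chr1:87803473-87803772, listed p-value 5.21e-05, rank 1359). Grk1 (chr8:13405081-13421951) has a receptor-bound region that overlaps its lower end (chr8:13404785-13405084, listed p-value 4.45e-21, rank 31) and another 4201 bases above its upper end (chr8:13426152-13426451, 0.00163). Neither gene has an induced region within 50 kb. Rgs9 (chr11:109225348-109298181) has no region of any list within 50 kb, and none of the 4 genes has a suppressed region there. For comparison, 39.04% of placed genes have a receptor-bound, 35.5% an induced and 13.2% a suppressed region within 50 kb. The tables used give no strand, so the ends are named by coordinate, and a region near a gene is a position and not an effect.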

How the data were processed

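Per the labels' protocols, each RNA library was made from 1 hand-picked cell. The submitters' processing notes name bcl2fastq 2, STAR 2.7.3a, MACS2 2.2.7.1 and GRCm38/mm10, without a counting tool or gene annotation. The RNA table was deposited by the authors in CPM. Whole reads could be recovered (100% of values within 0.1 reads), at depths of 0.898 to 32.6 M reads (M for 1e+06) per library. Values summed to 80.0% to 93.0% of the CPM scale, so the table holds part of each library's genes. The authors' receptor-bound list holds a p-value per region, without saying whether it is adjusted, and the other deposited lists hold positions only.

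Of 430 libraries, libraries 03 and 14 of P60 superior cones (r = 0.996 across genes, next pair 0.467) were counted as 1, which left 429 cells, of which 400 were cones. A group's value was its mean CPM over cells, with a pseudocount of 1 on the log2 scale. Zone differences were tested with limma 3.58.1 (trend, collection as a block) in R 4.3.3 on genes whose mean reached 5 CPM, at an adjusted p of 0.05, and with exact sign-flip tests. edgeR 4.0.16 and DESeq2 1.42.0 on reads summed per group were alternatives, and the fits were tested on simulated data. Shares at equal depth used cells thinned to 897893 reads, with exact Clopper-Pearson intervals of 95%. Other comparisons had no test. No doublet caller was run on the hand-picked cells.

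Named genes were the 4 members, the listed genes that passed a comparison's rule, Rgs9bp, Gnb5 and Rcvrn, Thrb and opsins where a result turns on them, and the 5 genes most like each member. Some of these are not reported here. Other genes named in the caption of the knockout ratios were chosen after their values were seen. The members and lists were chosen with earlier results of these data known. Markers of other cells were scarce or not measured: the highest group median of the summed level was 1385 CPM for Müller glia (7 of 8 markers measured), 467 CPM for bipolar (2 of 6), 114 CPM for amacrine (3 of 6), 0.598 CPM for ganglion (1 of 4), and 0 CPM for horizontal cells (1 of 3) and microglia (1 of 3). None of the markers of pigment epithelium (0 of 4) or of endothelium and blood (0 of 3) was in the table. Whether the samples of a group come from separate animals is not stated.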

Additional observations from a re-analysis of the deposited data

Results flagged for a closer look

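The zone difference of the arrestin ratio at P2 stood apart from the other control collections. It was -0.98, superior minus inferior on the log2 scale, where P8, P21, P60 and 2m lay between 0.94 and 1.08. The gap to the nearest collection was 0.934 of the whole range of the 5, and 5 such sets of differences were examined, of which chance flags about 1 in 20. At P2, Arr3 was above 10 CPM in 9 of 26 superior and 11 of 30 inferior cones, so the ratio there compares cells of which most had little Arr3 (SD over cells 4.33 superior and 4.40 inferior).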

How the results depend on the processing

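Of 266 comparisons of a main result with an alternative setting, 237 stayed within the spread between cells or on the same side of the threshold. The sign changed in 12, of which 0 were zone differences and 0 were of values that met the size rule: 5 in the knockout (Grk1 superior at -1.01, -0.67 and -0.33, Sag superior at -0.20 by means of log2 values and Sag inferior at 0.49 against P60), 1 in rods (Sag inferior, -0.03 by means of log2 values) and 6 in P60 over P21, of which the median of Grk1 superior (0.22) was farthest from 0. The spread between cells was wide for Grk1 and Rgs9, with SDs of 2.7 and 2.82 on the log2 scale in 2m control superior cones. The shift of Grk1 superior in the knockout from 0.16 to -1.01 therefore counted as within the spread. For these genes, staying within it is a weak check. With DESeq2 the zone difference of Grk1 (-0.57) passed the threshold. The count of genes called by zone was 16 with means of log2 values, 2 without the collection block and 236 with DESeq2. Leaving out 1 collection at a time gave -0.47 to -0.36 for Sag, -0.52 to -0.31 for Grk1, 0.13 to 0.51 for Arr3, 0.05 to 0.21 for Rgs9 and 0.51 to 1.02 for the arrestin ratio, with 0 genes called each time. Against P60 controls, Sag differed by 0.66 and 0.49 in knockout cones and by 1.15 and 0.64 in rods (superior, inferior). With a pseudocount of 5, rods over cones in Arr3 was -10.44 and -10.13. By medians over cells, rods over cones was -4.21 and -5.43 for Grk1 and -7.84 and -7.47 for Rgs9, and by means of log2 values it was -4.50 for Rgs9 against superior cones. P8 over P2 by means of log2 values was 8.64 and 7.69 for Arr3, 5.93 and 7.03 for Sag and 2.28 for Rgs9 superior. By medians it was 10.61 and 10.13 for Arr3, 4.21 and 5.65 for Sag, and 6.83 and 7.26 for Grk1. P21 over P8 of Arr3 superior was 2.27 by medians. With 2m controls as the adults, Sag differed from P21 by 0.66 and 0.64. The cause was not tested. Settings without the 2 libraries with little cone RNA and with shares over 10 CPM were added after the data were seen. No paired analysis was possible by replicate number because the numbers in the labels only name cells. The zone test pairs the superior and inferior means of each collection. Depth limits the genes near 0, where P2 to P60 libraries hold fewer reads than 2m libraries.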
